A study of Saccharomyces cerevisiae with 9 samples.

Results

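The genes described here are 40 genes of clathrin-mediated endocytosis and the cortical actin patch of budding yeast, out of 6215 genes in the expression table. They were chosen by name, from what their products are known to do, and with earlier results of these data known. They cover the clathrin coat and its adaptors, the proteins that link coat to actin and the activators of actin assembly. They also cover the Arp2/3 complex, actin and its binding proteins, and the proteins of scission and uncoating. All 40 passed the filter on low values (mean of 10 normalized reads or more), as did 5886 genes in all. Polyadenylated RNA had been sequenced from 3 strains of the BY4742 background, with 3 biological replicates each, after growth in synthetic complete medium for 24 h at 28 °C and with no treatment. The triple mutant was seg1Δ nce102Δ pil1Δ and is listed with LYS2 and MET15 present. The pil1 strain carried pil1::kanMX4 and lys2Δ0. The wild type was BY4742 itself, with lys2Δ0. All 3 strains are listed as MATα with his3Δ1, leu2Δ0 and ura3Δ0. The labels call the replicates biological and say nothing of clones or cultures, so p-values measure the spread between these libraries.

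In endocytosis of budding yeast, early adaptors and clathrin gather at a spot of the plasma membrane, later coat proteins bind actin regulators, and a burst of branched actin made by the Arp2/3 complex pulls the membrane inward against turgor. Amphiphysins then help to pinch off the vesicle, and kinases and a lipid phosphatase take the coat apart. Pil1 and Seg1 build eisosomes, which lie beneath furrows of the plasma membrane, and Nce102 sits in the membrane there. The series asks how transcript levels differ when these eisosome genes are deleted.

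Depth was between 21064051 and 27014469 reads per library, and the members had between 756 and 53057 reads each in a library. Values below are normalized reads, which are read counts divided by 1 size factor per library. The deleted genes followed the labels. PIL1 had 90 to 100 normalized reads in the triple mutant and 111 to 116 in pil1, against 15878 to 21404 in wild type. SEG1 had 14 to 27 and NCE102 139 to 239 in the triple mutant, against at least 6130 and 83910 in wild type. LYS2 had at least 24790 normalized reads in the triple mutant and was listed at 0 in the other 6 libraries. It differs between the same strains as SEG1 and NCE102, so the parts of these genes in the members' values cannot be told apart. A principal component with 81.3% of the variance separated the triple mutant from the other strains. All 4 genes specific to MATα cells were above 0 in each library, with summed levels of 5759 to 6832 normalized reads in the triple mutant, 11883 to 12546 in pil1 and 14707 to 16365 in wild type. Of 6 genes specific to MATa cells, all were above 0, with sums of 3120 to 3251 normalized reads in the triple mutant, 3439 to 3699 in pil1 and 3327 to 3738 in wild type, most of it from STE6. Against wild type, STE6 was called higher in the triple mutant (log2 fold change 0.35). STE2, BAR1, MFA1 and AGA2 were called lower there (-1.39, -0.94, -2.60 and -4.26), and MFA2 was not called. Of 132 cytosolic ribosomal protein genes, 123 were lower in the triple mutant than in wild type and 0 higher, with a median log2 fold change of -1.13. The part of these differences in the members' values was not tested. In a culture measured as a whole, fewer cells that transcribe a gene and less of its RNA per cell cannot be told apart.

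In the triple mutant, 15 of the 40 members rose and 8 fell relative to wild type, and 17 were not called (limma, adjusted p under 0.05 over all genes tested). Over all genes, 60.9% were called, 30.1% higher and 30.9% lower, so the members' 23 calls are a share near the background. The median log2 fold change was 0.17 for the members and -0.01 for all genes, and that of the members was 0.10 without triple mutant 2. The changes were small: 1 member, the Arp2/3 subunit gene ARC40, changed by at least 2-fold, as 19.9% of all genes did. Libraries of the triple mutant and wild type did not overlap for 26 of 40 members, beside 65.6% of all genes. When libraries were scaled by total reads in place of size factors, the median of all genes moved to -0.23 and that of the members to -0.059, and 6 members were called higher and 12 lower, where 17.5% and 40.4% of all genes were. The 6 were SYP1, CLC1, PAN1, BBC1, ABP1 and SAC6. EDE1, YAP1801, END3, BZZ1, ARP3, ARC35, SRV2, RVS161 and RVS167 kept a positive log2 fold change but were not called under that scaling, and ENT1, SLA2, ARC15 and COF1 were called lower.

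**Figure D1:**
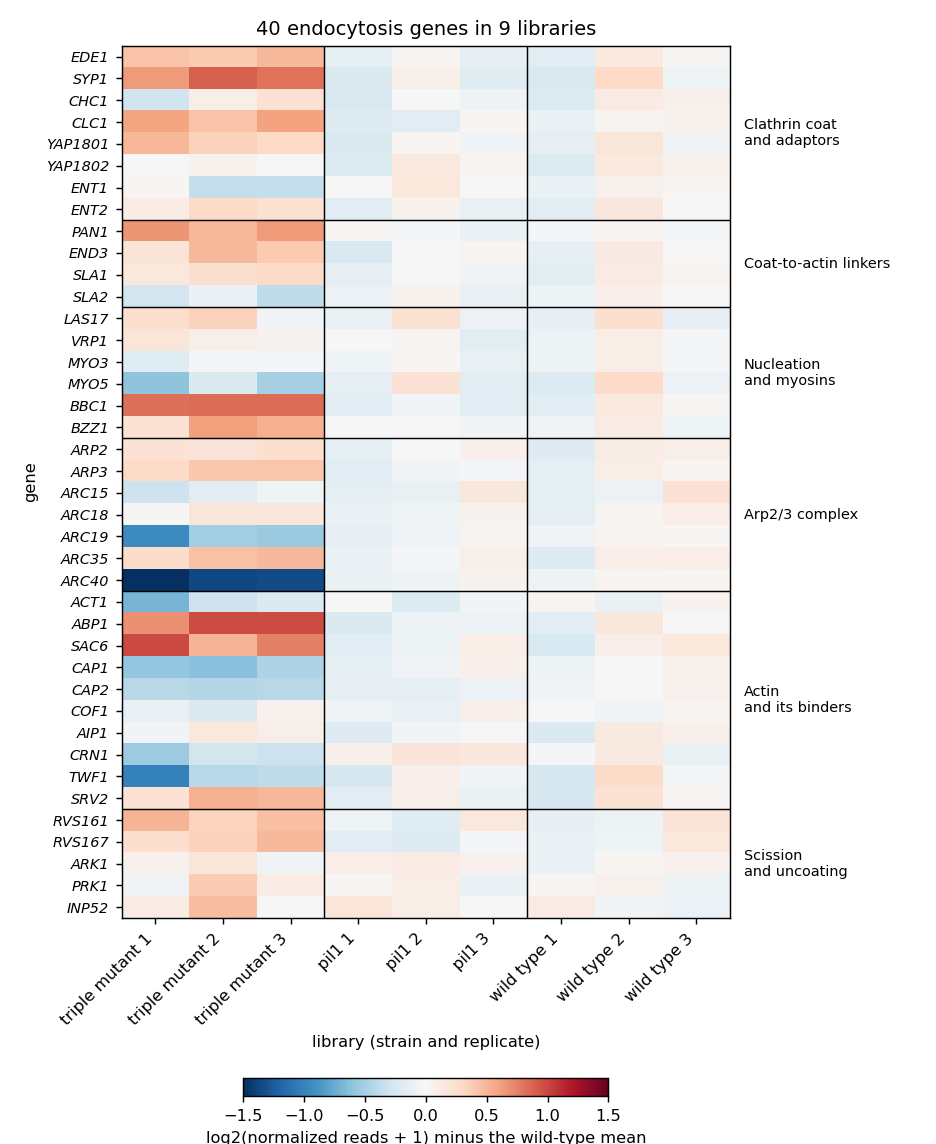
The 40 members (rows, grouped by role) in each of the 9 libraries (columns, by strain and replicate), coloured by log2(normalized reads + 1) minus the mean of the wild-type libraries. The ARC40 row is dark blue in the 3 triple mutant libraries, the ABP1, BBC1 and SYP1 rows are red there, and the pil1 columns stay pale.

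The promoter sequences of the pair of members with the largest falls, ARC40 and ARC19, and the pair with the largest rises, ABP1 and BBC1, are shown because these genes carry the largest differences in opposite directions. Each is the stretch between 300 and 101 bases before the start codon, written 5′ to 3′ on the strand of the gene, from the RefSeq R64 genome. ARC40 is read from chrII:686693-686892 on the minus strand, ARC19 from chrXI:418124-418323 on the minus strand, ABP1 from chrIII:264768-264967 on the plus strand and BBC1 from chrX:402511-402710 on the minus strand. Of the ARC19 stretch, 14 bases lie within the neighbouring gene PRP40. Capitals mark matches, on either strand, to the motifs described after the sequences.
ARC40: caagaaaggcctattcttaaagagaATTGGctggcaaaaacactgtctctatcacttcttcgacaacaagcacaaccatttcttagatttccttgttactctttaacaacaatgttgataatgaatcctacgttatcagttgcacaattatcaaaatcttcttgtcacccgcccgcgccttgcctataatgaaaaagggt
ARC19: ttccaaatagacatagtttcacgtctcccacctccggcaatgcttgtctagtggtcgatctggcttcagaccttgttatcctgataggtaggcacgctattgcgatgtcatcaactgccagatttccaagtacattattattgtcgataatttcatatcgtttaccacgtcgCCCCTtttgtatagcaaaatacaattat
ABP1: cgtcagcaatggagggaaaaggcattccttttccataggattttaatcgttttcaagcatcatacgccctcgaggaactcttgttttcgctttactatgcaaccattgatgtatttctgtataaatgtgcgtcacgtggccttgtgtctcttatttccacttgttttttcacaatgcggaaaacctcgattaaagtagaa
BBC1: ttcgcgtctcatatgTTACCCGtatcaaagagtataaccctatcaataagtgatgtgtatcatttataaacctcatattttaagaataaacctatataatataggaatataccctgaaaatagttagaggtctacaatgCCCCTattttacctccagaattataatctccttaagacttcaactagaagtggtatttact

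Capitals in ARC40 are the reverse complement of the CCAAT box (CCAAT), and those in ARC19 the reverse complement of the stress response element (AGGGG). Those in BBC1 are a Reb1 motif (TTACCCG) and the reverse complement of the stress response element. ABP1 held none of the 7 motifs searched. In the same 200-base window, AGGGG lay in 18 of 40 members and in 16.5% of 5801 genes, CCAAT in 10 members and 30.9% of genes, and TTACCCG in 6 members and 7.88%. The pheromone-responsive Ste12 motif (TGAAACA) lay in 2 members and 4.79% of genes. The PAC motif (GATGAG), the MCB motif (ACGCGT) and the forkhead motif (GTAAACA) lay in 0 members and in 13.3%, 2.97% and 4.78% of genes. The stress response element was present in 8 of the 15 members that rose and in 4 of the 8 that fell. The GC content of the window had a median of 36.25% in the members and 36% in all genes. A match is a description of these letters and no measure of binding.

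Of the 8 genes of the clathrin coat and its adaptors, 4 rose in the triple mutant, 0 fell and 4 were not called, with a median log2 fold change of 0.30. Over all genes, 30.1% were called higher and 30.9% lower. The counts by role and by list, here and below, describe small classes and are to be read beside those shares. With total-read scaling, only SYP1 and CLC1 of the coat class stayed called higher, and ENT1 was called lower (log2 fold change -0.45, adjusted p = 0.0162 by limma). SYP1 (chrIII:173826-176438), whose product is an early membrane-bending adaptor, had 5840, 6956 and 6596 normalized reads in the triple mutant, 3218, 3975 and 3308 in pil1 and 3179, 4606 and 3571 in wild type. All 3 triple mutant libraries stood above the other 6. The log2 fold change against wild type was 0.79 (SE 0.15, 1.72-fold, adjusted p = 0.00148 by limma). CLC1, the gene of the clathrin light chain, had 7094, 6311 and 7159 normalized reads in the triple mutant, 4099, 4192 and 4794 in pil1 and 4391, 4840 and 4862 in wild type. It rose 1.46-fold without overlap (adjusted p = 0.00105 by limma). CHC1, the gene of the clathrin heavy chain, had 8295, 10854 and 11909 normalized reads in the triple mutant and 8838, 11095 and 10705 in wild type. These groups overlapped, and the 95% confidence interval of its log2 fold change was -0.34 to 0.36.

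EDE1, which encodes an early scaffold related to mammalian Eps15, had 19311, 18957 and 20227 normalized reads in the triple mutant and 12788, 15959 and 14622 in wild type. It rose 1.35-fold (adjusted p = 0.0102 by limma), with the triple mutant libraries above the wild-type ones. The clathrin assembly factor genes YAP1801 and YAP1802, relatives of mammalian AP180, differed from each other. YAP1801 had 13162, 11830 and 11468 normalized reads in the triple mutant and 8420, 10550 and 9059 in wild type, and rose 1.30-fold (adjusted p = 0.0206 by limma). That call ended without wild type 1 (adjusted p = 0.0765) or wild type 3 (adjusted p = 0.0625). YAP1802 was not called, at 1238 to 1278 normalized reads in the triple mutant and 1069 to 1365 in wild type. The epsin genes ENT1 and ENT2, whose products bind ubiquitin and membrane lipid, were not called at log2 fold changes of -0.23 and 0.21. Triple mutant 1 had 1952 normalized reads of ENT1 and triple mutant 2 and 3 had 1497 and 1487, and without triple mutant 1 ENT1 was called lower (log2 fold change -0.36, adjusted p = 0.0069).

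Of the 4 genes whose products link the coat to actin, 2 rose, 0 fell and 2 were not called, with a median log2 fold change of 0.29. PAN1, a scaffold that also activates the Arp2/3 complex, had 12317, 10927 and 12056 normalized reads in the triple mutant, 7845, 7609 and 7229 in pil1 and 7701, 7928 and 7667 in wild type. The wild-type libraries lay within a narrow range, the triple mutant libraries lay above it, and the rise was 1.51-fold (adjusted p = 0.000416 by limma). END3, the gene of a partner of Pan1, had 2410, 2935 and 2763 normalized reads in the triple mutant and 1924, 2307 and 2093 in wild type. It rose 1.28-fold (adjusted p = 0.0202 by limma), a call that ended without wild type 1 (adjusted p = 0.0734), wild type 3 (adjusted p = 0.0532), triple mutant 2 (adjusted p = 0.0676) or triple mutant 3 (adjusted p = 0.0609). SLA1, whose product joins Pan1 and End3, was not called against wild type (log2 fold change 0.23, adjusted p = 0.0947 by limma). SLA2, which encodes the anchor between membrane and actin related to mammalian Hip1R, had a log2 fold change of -0.25 and was not called (adjusted p = 0.0568 by limma). Without triple mutant 2 it was called lower (log2 fold change -0.32, adjusted p = 0.0233).

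Of the 6 genes of nucleation promoting factors, type I myosins and their regulators, 2 rose, 1 fell and 3 were not called, with a median log2 fold change of 0.15. BBC1 (chrX:398937-402410), whose product inhibits the yeast WASP protein Las17, had 14947, 15152 and 15154 normalized reads in the triple mutant, 7573, 8196 and 7533 in pil1 and 7567, 9369 and 8542 in wild type. The triple mutant libraries were close to each other, with the smallest coefficient of variation of all members in that strain (0.788%), and above all others. The log2 fold change was 0.83 (SE 0.10, 1.78-fold, adjusted p = 0.00014 by limma). BZZ1, which encodes an F-BAR protein that binds Las17, had 2215, 2911 and 2755 normalized reads in the triple mutant and 1837, 2069 and 1823 in wild type, and rose 1.37-fold (adjusted p = 0.0057 by limma). LAS17 itself had 1642, 1752 and 1339 normalized reads in the triple mutant and 1265, 1622 and 1264 in wild type. Its groups overlapped and it was not called (log2 fold change 0.19, 95% confidence interval -0.14 to 0.52). VRP1, the gene of its partner verprolin, was not called at 0.11.

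The myosin gene MYO5 had 2722, 3546 and 2927 normalized reads in the triple mutant, 3738, 4809 and 3708 in pil1 and 3577, 5044 and 3893 in wild type. It was called lower (1.35-fold, adjusted p = 0.0406 by limma), and the libraries of the triple mutant and wild type did not overlap. The call ended without wild type 2 (adjusted p = 0.124), wild type 3 (adjusted p = 0.0617), pil1 1 (adjusted p = 0.051), pil1 3 (adjusted p = 0.0523), triple mutant 1 (adjusted p = 0.119) or triple mutant 3 (adjusted p = 0.106). Its paralog MYO3, with 75.6% identity over 76.2% of the MYO3 coding sequence, was not called at a log2 fold change of -0.08. No member had a copy at least 90% identical over at least 50% of its length, and none overlapped another annotated gene.

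Of the 7 subunit genes of the Arp2/3 complex, which nucleates branched actin, 2 rose, 2 fell and 3 were not called. The rises depended on the scaling. With libraries scaled by total reads, ARP3 and ARC35 were not called (log2 fold changes 0.14 and 0.18), while ARC40, ARC19 and ARC15 were called lower. ARC40 (chrII:685438-686592), the gene of the WD-repeat subunit, had 1576, 1713 and 1746 normalized reads in the triple mutant, 4119, 4198 and 4599 in pil1 and 4213, 4561 and 4522 in wild type. The gap between the triple mutant and the other strains was far wider than the spread within each strain. The log2 fold change was -1.40 (SE 0.08, 2.64-fold lower, adjusted p = 2.7e-06 by limma), and 6.03% of all genes had a lower value. ARC19 (chrXI:417508-418023), another subunit gene, had 1699, 2282 and 2225 normalized reads in the triple mutant, 3018, 3170 and 3381 in pil1 and 3159, 3364 and 3327 in wild type. Each triple mutant library lay below all others, triple mutant 1 lowest, with a log2 fold change of -0.68 (SE 0.12, 1.60-fold lower, adjusted p = 0.000858 by limma).

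ARP3, which with ARP2 encodes the actin-related pair at the heart of the complex, had 7223, 7794 and 7850 normalized reads in the triple mutant and 5383, 6330 and 6042 in wild type. It rose 1.29-fold (adjusted p = 0.0072 by limma) without overlap. ARC35, a further subunit gene, had 3284, 3680 and 3811 normalized reads in the triple mutant and 2372, 2897 and 2902 in wild type, and rose 1.32-fold (adjusted p = 0.00889 by limma). ARP2, ARC18 and ARC15 were not called, at log2 fold changes of 0.22, 0.13 and -0.18. The libraries of ARP2 did not overlap (3987 to 4155 normalized reads in the triple mutant, 3061 to 3773 in wild type), and its adjusted p was 0.0879 by limma.

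**Figure D2:**
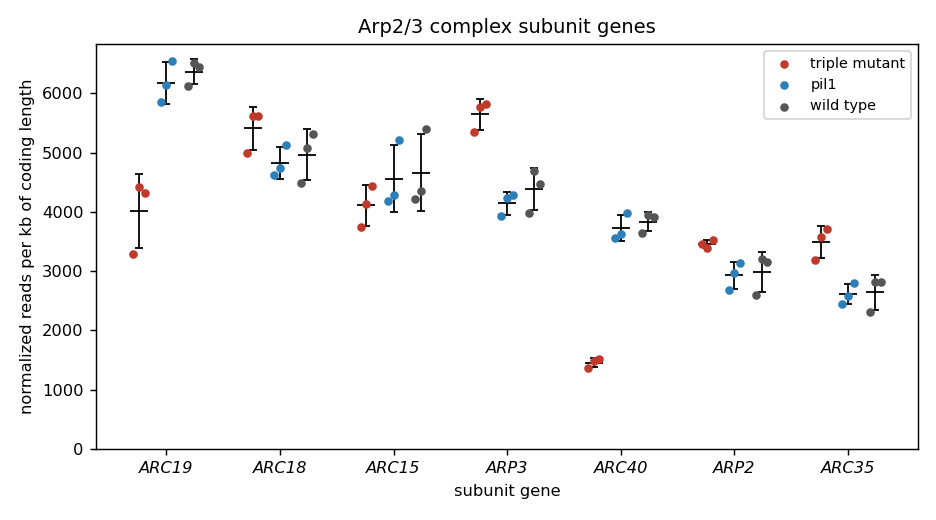
Normalized reads per kb of coding length (vertical axis) of the 7 Arp2/3 subunit genes (horizontal axis), with a point per library, a bar for the mean and error bars of 1 SD (n = 3). The triple mutant points of ARC40 average 1453 per kb, against 3728 in pil1 and 3837 in wild type, while those of ARP3 average 5646 per kb, against 4145 and 4384.

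On a scale per kb of coding length, the summed level of the 7 subunit genes was 27575 ± 1911 in the triple mutant, 28984 ± 1933 in pil1 and 29842 ± 2185 in wild type (SD, n = 3), while the shares within that sum differed. ARC40 made up 5.27% ± 0.087 of it in the triple mutant, 12.9% ± 0.183 in pil1 and 12.9% ± 0.456 in wild type. ARC19 made up 14.5% ± 1.35 in the triple mutant and 21.4% ± 0.961 in wild type. ARP3 made up 20.5% ± 0.509 in the triple mutant and 14.7% ± 0.573 in wild type. Such shares are coupled, since a lower ARC40 raises the others. The ratio of ARC40 to ARP3 within each library was 0.255, 0.257 and 0.26 in the triple mutant, 0.909, 0.86 and 0.93 in pil1 and 0.915, 0.842 and 0.875 in wild type, a ratio that no scaling of libraries alters. The ratio of ARC35 to ARP3 overlapped between strains, at 0.596 to 0.637 in the triple mutant and 0.578 to 0.63 in wild type.

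Of 18 such ratios between partners or paralogs, 13 did not overlap between the triple mutant and wild type. Levels of single genes did not overlap for 65.6% of all genes. Ratios of other gene pairs were not counted, so 13 of 18 cannot be called particular to these partners. Each of the 13 ratios reached p = 0.1 in a two-sided exact permutation test, the smallest that 3 libraries against 3 allow (adjusted p = 0.138 over the 18). The design had planned no such test. Several ratios share ARP3 or ACT1 as denominator, and some pair members called in opposite directions. Their lack of overlap follows in part from those calls and is no second test of them. Clathrin light to heavy chain (CLC1 to CHC1) was 4.80 ± 1.08 in the triple mutant and 3.27 ± 0.22 in wild type, with triple mutant 1 highest at 6.05. The ratio of CAP1 to CAP2, the capping protein subunits, was 0.872 ± 0.0422 in the triple mutant and 0.955 ± 0.0116 in wild type. YAP1801 to YAP1802 was 8.65 ± 0.676 in the triple mutant and 6.72 ± 0.425 in wild type. MYO5 to MYO3 was 0.543 ± 0.0569 in the triple mutant and 0.698 ± 0.0819 in wild type. Among the paralogs, ENT1 to ENT2 and ARK1 to PRK1 overlapped. The ratio of RVS161 to RVS167, the amphiphysin partners, overlapped, at 0.881 ± 0.101 in the triple mutant and 0.834 ± 0.021 in wild type.

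**Figure D3:**
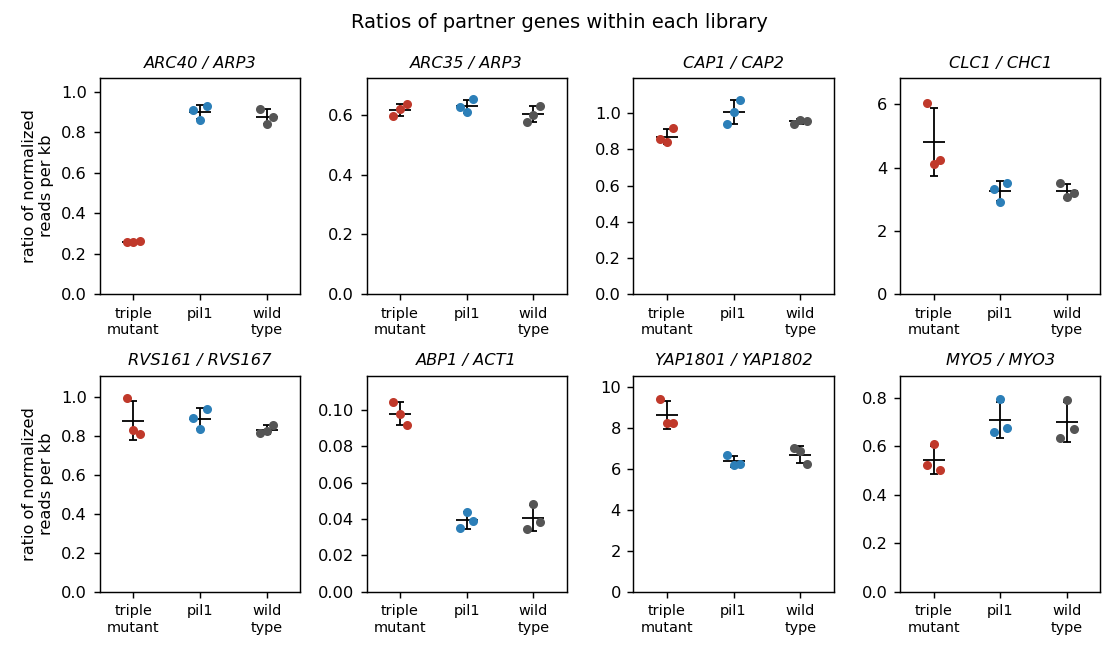
Ratios of normalized reads per kb between partner or paralog genes (vertical axes, starting at 0) in each library of the 3 strains (horizontal axes), with the mean and 1 SD (n = 3). ARC40 to ARP3 and ABP1 to ACT1 separate the triple mutant from both other strains, while ARC35 to ARP3 and RVS161 to RVS167 overlap.

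Of the 10 genes of actin and its binding proteins, 3 rose, 5 fell and 2 were not called, and the median log2 fold change was -0.23. ABP1 (chrIII:265068-266846), whose product binds patch actin and recruits the kinases Ark1 and Prk1, had 4494, 5505 and 5520 normalized reads in the triple mutant, 2408, 2652 and 2625 in pil1 and 2491, 3152 and 2791 in wild type. All triple mutant libraries lay above the other 6. It was the largest rise among the 40 members, at a log2 fold change of 0.88 (SE 0.11, 1.84-fold, adjusted p = 0.000187 by limma), and 10.1% of all genes had a higher value. SAC6 (chrIV:713340-715379), the gene of the actin bundler fimbrin, had 18632, 13355 and 15820 normalized reads in the triple mutant, 8404, 8945 and 10112 in pil1 and 8008, 9931 and 10451 in wild type. Its triple mutant libraries varied among themselves but all lay above the rest (log2 fold change 0.75, SE 0.16, 1.68-fold, adjusted p = 0.00271 by limma). SRV2, which encodes the cyclase-associated protein that recycles actin monomers, had 4780, 5956 and 5784 normalized reads in the triple mutant and 3486, 4754 and 4179 in wild type. It rose 1.33-fold (adjusted p = 0.0245 by limma), a call that ended without wild type 1 (adjusted p = 0.0886), wild type 3 (adjusted p = 0.0535), triple mutant 2 (adjusted p = 0.0789) or triple mutant 3 (adjusted p = 0.0776).

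Both subunit genes of capping protein, which blocks the growing ends of filaments, fell. CAP1 (chrXI:429302-430108) had 2129, 2048 and 2294 normalized reads in the triple mutant, 2877, 3053 and 3339 in pil1 and 3009, 3195 and 3316 in wild type. Its log2 fold change was -0.56 (SE 0.08, 1.47-fold lower, adjusted p = 0.000457 by limma). CAP2 had 2665, 2610 and 2670 normalized reads in the triple mutant, 3270, 3249 and 3333 in pil1 and 3417, 3541 and 3710 in wild type, and was 1.34-fold lower (adjusted p = 0.000517 by limma). The triple mutant libraries of both genes lay below all others. CRN1, the gene of coronin, which binds filaments and the Arp2/3 complex, had 2603, 3150 and 3042 normalized reads in the triple mutant and 3725, 4186 and 3550 in wild type, and was 1.30-fold lower (adjusted p = 0.00832 by limma).

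TWF1 (chrVII:642010-643008), which encodes the monomer-binding protein twinfilin, had 860, 1303 and 1331 normalized reads in the triple mutant, 1476, 1827 and 1682 in pil1 and 1469, 2095 and 1702 in wild type. The log2 fold change was -0.60 (SE 0.19, 1.52-fold lower, adjusted p = 0.0203 by limma). Triple mutant 1 was lowest, and without it the log2 fold change was -0.40 and the call ended (adjusted p = 0.0514), as it did without wild type 2 (adjusted p = 0.0612). TWF1 lies 6.59 kb from PIL1, which is deleted in both mutants, and AIP1 lies 9.54 kb from SEG1. ACT1, the single actin gene, had 27322, 35690 and 38097 normalized reads in the triple mutant, 43849, 38335 and 42752 in pil1 and 45396, 41295 and 45825 in wild type. It was called lower at the edge of the threshold (1.32-fold, adjusted p = 0.0473 by limma). The call ended on leaving out any of the 9 libraries but triple mutant 3, with adjusted p between 0.0588 and 0.12, and without triple mutant 1 the log2 fold change was -0.26 (adjusted p = 0.0961). The severing protein gene COF1 (cofilin) and AIP1, its partner, were not called, at log2 fold changes of -0.08 and 0.07. The level of ABP1 per kb relative to ACT1 was 0.098 ± 0.00622 in the triple mutant and 0.0406 ± 0.00702 in wild type.

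Of the 5 genes of scission and uncoating, 2 rose, 0 fell and 3 were not called, with a median log2 fold change of 0.20. The genes that rose were the amphiphysin pair. RVS161 had 4806, 4284 and 4614 normalized reads in the triple mutant and 3110, 3220 and 3874 in wild type, and rose 1.35-fold (adjusted p = 0.0105 by limma). RVS167 had 8749, 9356 and 10297 normalized reads in the triple mutant and 6900, 7075 and 8196 in wild type, and rose 1.28-fold (adjusted p = 0.0169 by limma). The call of RVS167 ended without wild type 1 (adjusted p = 0.0617), wild type 2 (adjusted p = 0.053) or triple mutant 3 (adjusted p = 0.064). The kinase genes ARK1 and PRK1, whose products take the coat apart, and INP52, the gene of a synaptojanin-like lipid phosphatase, were not called at log2 fold changes of 0.06, 0.14 and 0.20.

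**Figure D4:**
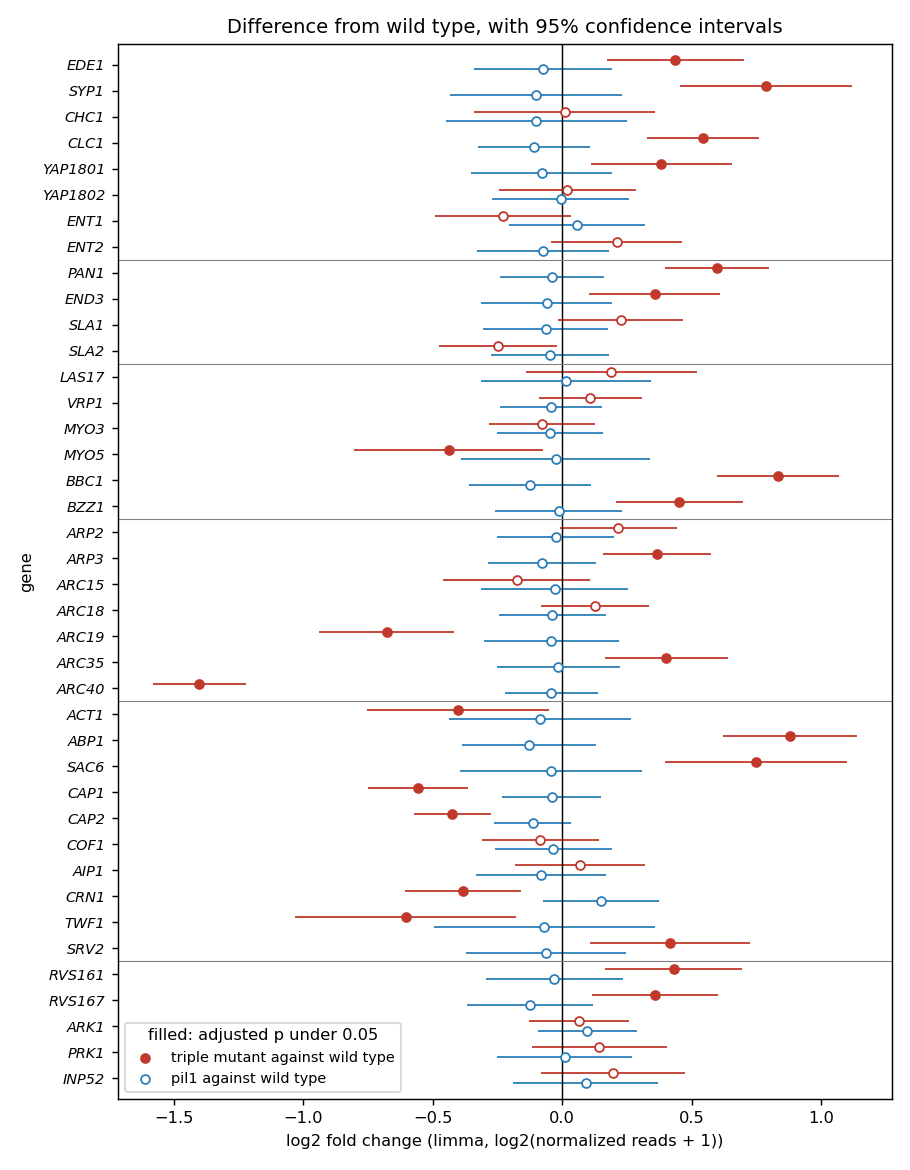
Log2 fold change against wild type (horizontal axis) of each member (vertical axis, grouped by role), for the triple mutant (red) and pil1 (blue), with 95% confidence intervals from limma and filled points for adjusted p under 0.05. Filled red points lie on both sides of 0, between -1.40 for ARC40 and 0.88 for ABP1, while the blue points lie between -0.13 and 0.15 and none is filled.

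The deletion of PIL1 alone was accompanied by no call among the members. Of all genes, limma called 0.017%, which is PIL1 itself, and 0 of 40 members. At an unadjusted p under 0.05, 0 members passed by limma, edgeR or DESeq2, where 1%, 0.968% and 1.34% of all genes passed. These p-values, and the confidence intervals below, come from fits that did not treat libraries of the same number as pairs. Log2 fold changes ran between -0.13 for ABP1 and 0.15 for CRN1, with a median of -0.04 for the members and 0.01 for all genes. That median of the members was -0.112 without wild type 1, -0.0014 without wild type 2, -0.014 without pil1 1, -0.083 without pil1 2 and -0.077 without pil1 3, and -0.010 under scaling by total reads. The sign was negative for 34 of 40 members and 2802 of 5886 genes, and under scaling by total reads for 27 members and 1895 genes. The 95% confidence interval lay within 1.5-fold of no change for all 40 members and for 82.1% of all genes, and within 1.25-fold for 22 members and 39.8% of all genes. CAP2 was the 1 member whose pil1 and wild-type libraries did not overlap, as for 6.22% of all genes, with 3249 to 3333 normalized reads in pil1 and 3417 to 3710 in wild type. ARC40, which fell in the triple mutant, had a log2 fold change of -0.04 in pil1 (95% confidence interval -0.22 to 0.14). With libraries of the same number treated as pairs in a fit of pil1 and wild type alone, ABP1, CAP2, CRN1 and RVS167 passed an unadjusted p under 0.05, as 14% of all genes did, and the smallest adjusted p among members was 0.296 by limma.

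Against pil1, the triple mutant had 16 members higher, 7 lower and 17 not called, where limma called 62.9% of all genes, 30.8% higher and 32.1% lower. Of the members, 2 (ABP1 and ARC40) differed by at least 2-fold, as did 22% of all genes, and 27 did not overlap, beside 69.3% of all genes. This comparison shares the triple mutant libraries with the one against wild type, so its values stand beside those above and are no second test. The largest rises were those of ABP1 at a log2 fold change of 1.01 (SE 0.11), BBC1 at 0.96 (SE 0.10) and SYP1 at 0.89 (SE 0.15). ARC40 was at -1.36 (SE 0.08) and ARC19 at -0.64 (SE 0.12). SLA1 was called higher against pil1 (log2 fold change 0.29, adjusted p = 0.0388 by limma). That call ended under TMM scaling (0.28, adjusted p = 0.0507 by limma) and total-read scaling (0.03, adjusted p = 0.856 by limma). MYO5 was called lower against pil1 (adjusted p = 0.0493 by limma), but not under TMM scaling (adjusted p = 0.0517 by limma) or by edgeR (adjusted p = 0.0545). ACT1 was not called against pil1 (log2 fold change -0.32, adjusted p = 0.102 by limma).

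The levels of the members spanned 2 orders of magnitude per length. In wild type, ACT1 was highest at 39160 ± 2217 normalized reads per kb of coding length, followed by COF1 at 16419 ± 509 and CLC1 at 6692 ± 379. The inositol phosphatase gene INP52 was lowest at 352 ± 27.1, below ARK1 at 648 ± 39.6. ACT1, COF1 and CLC1 held the first 3 ranks in each of the strains, and ARK1 and INP52 the last 2. ARC40 stood 15th of the 40 members in wild type, 14th in pil1 and 31st in the triple mutant, and ABP1 31st in wild type, 32nd in pil1 and 20th in the triple mutant. Of the members, 33 lay above the median of 5802 genes, which was 1215 normalized reads per kb.

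Within strains, 1 library was often the highest for many members. Wild type 2 was the highest of the wild-type libraries for 27 of 40 members and for 39.6% of all genes, and wild type 1 was highest for 1 member and 32.7% of all genes. Pil1 2 was highest in its strain for 20 members and 38.2% of all genes. Triple mutant 1 was highest for 6 members, where it was highest for 41.7% of all genes. The median coefficient of variation of the members was 8.26% in the triple mutant, 6.79% in pil1 and 9.31% in wild type, and that of all genes was 11.2% in the triple mutant, 8.38% in pil1 and 9.43% in wild type.

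Related genes outside the 40 were counted in the same way. Of 61 genes in 5 further lists, 16 rose in the triple mutant against wild type, 23 fell and 22 were not called, beside 30.1% higher and 30.9% lower over all genes, and the median log2 fold change was -0.05. Under scaling by total reads, 4 rose and 28 fell, beside 17.5% and 40.4% over all genes. Of the 4 genes of the AP-2 adaptor complex, the large subunit gene APL1 rose (log2 fold change 0.52, adjusted p = 0.000442 by limma), APS2 and APM4 fell (-0.33 and -0.16) and 1 was not called. Of 10 genes of other clathrin adaptors, 1 rose and 3 fell, with the epsin-like gene ENT4 at -0.75 and the AP-1 subunit gene APS1 at -0.39, while SWA2, the gene of the auxilin-like uncoating factor, rose by 0.38 on the log2 scale.

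Of 23 other patch genes, 9 rose and 7 fell, with a median log2 fold change of 0.01. On the log2 scale, GTS1 rose by 0.90 and VPS1, the gene of a dynamin-like protein, by 0.71. VPS1 had 5196, 4995 and 5025 normalized reads in the triple mutant and 2872, 3323 and 3148 in wild type, without overlap. The members of this list that fell were PAL1 (-0.91), INP51 (-0.68) and INP53 (-0.31) of the same phosphatase family as INP52, LSB1 (-0.68), SCP1 (-0.59), the profilin gene PFY1 (-0.37) and ABP140 (-0.49). Of 10 genes of actin cables, the straight bundles that guide transport, 3 rose and 5 fell. The formin genes moved apart: BNR1 had normalized reads of 364, 270 and 252 in the triple mutant, against 1068, 835 and 981 in wild type (log2 fold change -1.71, adjusted p = 2.7e-05 by limma), while BNI1 had 14866, 13619 and 14905 in the triple mutant, against 10943, 10225 and 10204 in wild type (0.47, adjusted p = 0.00294 by limma). On the log2 scale, the class V myosin gene MYO2 fell by 0.94 and the polarity gene SPA2 by 0.46, while the tropomyosin gene TPM2 rose by 0.41 and the kinesin-related gene SMY1 by 0.28. Of 14 genes of chaperonin and prefoldin, which fold actin and tubulin, 2 rose and 6 fell, among them CCT4 at -0.90, GIM3 at -0.83 and CCT7 at -0.43. CCT8 and GIM5 rose, at 0.38 and 0.37.

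Calls of these further genes that ended when 1 library was left out were those of APM4 (adjusted p up to 0.125), INP53 (up to 0.117), ABP140 (up to 0.0762), PFY1 (0.0523), SMY1 (up to 0.0838), CCT8 (up to 0.119), GIM5 (up to 0.0602), APL4 (up to 0.117), AIM21 (up to 0.149), ECM25 (up to 0.109) and LSB5 (up to 0.0684). The last 4, of which APL4 was called lower and the others higher, are named for this reason, after their values were seen. The library was wild type 3 for PFY1, wild type 3 or triple mutant 3 for SMY1, wild type 2 or triple mutant 2 or 3 for GIM5, and wild type 1 or triple mutant 2 or 3 for ABP140 and LSB5. For CCT8 it was wild type 2 or 3, pil1 3 or any triple mutant library, for APM4 any library but triple mutant 1, and for INP53 and APL4 any library but triple mutant 2. For AIM21 it was wild type 1 or 3, pil1 3 or triple mutant 1 or 2, and for ECM25 wild type 1 or 3 or triple mutant 3. Calls that ended under scaling by total reads, where 4 of the 61 genes rose, are not part of this account. In pil1 against wild type, 0 of the 61 genes were called.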

How the data were processed

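Polyadenylated RNA of 9 libraries was sequenced, 3 each of the triple mutant, pil1 and wild type. Per the labels' protocols, cells were washed in 10 mM NaF and NaN3 and broken with glass beads, and column-purified RNA was treated with DNase. Per the submitters' processing notes, GSNAP, DESeq2 and DESeq were used with build R64. No counting tool, annotation or strand setting is given in the sources used here, and reads of antisense partners cannot be told apart.

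The deposited table of signal holds read counts divided by 1 size factor per library: 100% of the values came out as whole reads (tolerance 1e-06). A second deposited table holds transformed log2 values, of a kind the sources used here do not give, and served as an alternative.

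The main test was limma 3.58.1 in R 4.3.3 (eBayes with trend and robust) on log2(normalized reads + 1), with all 9 libraries and group means. Genes with a mean of at least 10 were tested, 5886 in all (329 fell below). Two-sided p-values were adjusted by Benjamini-Hochberg over all genes tested, with calls under 0.05. Fold changes on this scale understate those of low genes. The design allowed for raw counts or normalized values, and the values were normalized. Alternatives were edgeR 4.0.16 and DESeq2 1.42.0 on the recovered reads, TMM and total-read scaling, the transformed table, other filters (none, or a mean of 50) and a pseudocount of 5, a replicate block, fits of the compared groups alone, and libraries left out. Scripts were tested on simulated data.

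Same-numbered pil1 and wild-type libraries deviated together (correlations 0.639, 0.833 and 0.579) and so count as pairs, although the labels do not state this pairing. The values reported come from the fit without pairs unless pairing is named, and the paired fits were alternatives. The correlations of same-numbered triple mutant and wild-type libraries were lower (0.05, 0.191 and 0.362), beside -0.252 to 0.0251 for libraries of unlike number. For the triple mutant and pil1, same-numbered libraries had 0.0694, 0.237 and 0.439, beside -0.296 to 0.0209 for unlike numbers. Replicate libraries were not repeats of each other, with a chi-square of 37.0 to 404 per degree of freedom.

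The members and lists were chosen with earlier results of these data known. All 40 members are described, with full statistics for the 4 largest rises and the 4 largest falls. Of each further list, up to 3 called genes with the smallest p and those called against the larger count are named. Coordinates and promoters come from the R64 reference, in which 6212 genes were found and 3 were not. Sequence similarity was compared over coding sequences.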

Additional observations from a re-analysis of the deposited data

How the results depend on the processing

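Of 21 alternatives, 20 kept the sign of the members' median log2 fold change in each comparison, and scaling by total reads turned it in both comparisons of the triple mutant. Of the 15 members called higher in the triple mutant against wild type, 6 kept the call in all 21 (SYP1, CLC1, PAN1, BBC1, ABP1 and SAC6), as did 5 of the 8 called lower (ARC40, ARC19, CAP1, CAP2 and CRN1). Under total-read scaling, 1029 genes were higher in the triple mutant than in wild type and 1023 than in pil1. Members higher came to 6 and 6, other pathway genes higher to 4 and 3, and members lower against pil1 to 12. The members' median log2 fold change was -0.059 against wild type and -0.10 against pil1. CCT2, not called against pil1 with size factors, was called lower under that scaling at -0.23 (adjusted p = 0.0459 by limma). On the recovered reads, edgeR called 3604 genes and DESeq2 3742 between triple mutant and wild type, and DESeq2 called 2 genes in pil1, both lower. With 1 library left out, members lower in the triple mutant against wild type were 5 to 8, with 5 without wild type 2, and the members' median was 0.10 to 0.20 for triple mutant against wild type, 0.12 to 0.23 for triple mutant against pil1 and -0.112 to -0.0014 for pil1 against wild type. Without wild type 1 and triple mutant 1 together the median against pil1 was 0.23. Why these values moved was not tested. With the replicate number as a block, 4024 of 5886 genes were called between triple mutant and wild type, with 18 members higher and 10 lower. Members gained were ENT2 (adjusted p = 0.0254), SLA1 (0.0279) and ARP2 (0.0374), higher, and SLA2 (0.0142) and ARC15 (0.036), lower. With the block and the compared groups alone, YAP1801 (0.0621) and ACT1 (0.0856) were not called. The block changed no call of a member in pil1 against wild type.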
